A study of Mus musculus with 26 samples.

Results

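S100a8 and S100a9 encode the calcium-binding subunits of calprotectin, and they were the 2 genes chosen, by symbol, from the 16397 genes with a row of their own in the deposited table. They were selected on their measured levels across the stages and compartments of these same libraries, so those levels and differences are given as a description with no p-value. Where it is said whether a fit over all genes called them, nothing is read from it. The data were 26 RNA-seq libraries of tongue from males of the inbred CBA strain, taken from a model in which the DNA-damaging compound 4-NQO drives oral carcinogenesis. Epithelium, or the stroma and muscle beneath it, was cut by laser from paraffin sections where a pathologist had mapped it. Each compartment gave 3 normal, 3 hyperplasia, 4 dysplasia and 3 tumor libraries. Ages at sacrifice ranged from 16 to 24 weeks in the normal groups, from 20 to 32 weeks in hyperplasia, from 16 to 32 weeks in dysplasia and from 28 to 32 weeks in tumor. The labels name no genetic alteration, and they leave out both the 4-NQO exposure of the normal groups and the animal behind each library. P-values therefore measure the spread between these libraries, which may share animals.

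The 2 subunits form a heterodimer that binds calcium, zinc and manganese. It makes up much of the cytosolic protein of neutrophils, is also found in monocytes, and starves microbes of metals. Keratinocytes of wounded or inflamed skin and mucosa also make both subunits, and the secreted protein can act on Toll-like receptor 4 and on the receptor for advanced glycation end products. Krt16, a keratin of stressed and regenerating epithelium, Csf3r, the receptor for granulocyte colony-stimulating factor, and Mpo, the peroxidase that neutrophil precursors store, were read beside them.

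The genes lie on mouse chromosome 3 in build GRCm38, S100a8 at chr3:90668978-90670035 on the plus strand and S100a9 at chr3:90692632-90695721 on the minus strand. The gap between them was 22596 bases. Sequence from before each start, and for S100a9 also across it, is shown because the levels of the 2 genes moved together across libraries. RefSeq promoters of build GRCm38.p6 were searched on both strands from 250 bases before to 50 bases from the start on. The RefSeq start of S100a8 lay 93 bases inside the first exon of the other annotation used, so the longer stretch ends before that exon. In the longer stretches, capitals mark the C/EBP core TTNNGNAA on either strand and, for S100a8, the PU.1 motif GAGGAA, which stands there as its reverse complement. In the short stretches they mark TATAAA.
S100a8, chr3:90668821-90668977, plus strand: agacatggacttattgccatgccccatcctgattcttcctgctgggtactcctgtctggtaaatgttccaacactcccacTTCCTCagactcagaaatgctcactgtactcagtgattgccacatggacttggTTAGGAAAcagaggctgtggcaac
S100a8, chr3:90669029-90669058, plus strand: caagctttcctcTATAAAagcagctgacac
S100a9, chr3:90695722-90695971, minus strand: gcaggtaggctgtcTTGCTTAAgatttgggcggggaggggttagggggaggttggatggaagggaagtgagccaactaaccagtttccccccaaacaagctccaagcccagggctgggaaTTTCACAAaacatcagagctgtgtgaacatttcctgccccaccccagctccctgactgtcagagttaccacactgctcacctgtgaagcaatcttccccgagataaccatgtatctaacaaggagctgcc
S100a9, chr3:90695704-90695733, minus strand: caaggagctgccTATAAAtactgggcttac

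Both promoter windows held TATAAA once, as did 13.6% of the 32851 RefSeq promoters. It stood at bases -30 to -25 from the RefSeq start of S100a8. For S100a9 it stood at bases 1 to 6, from the annotated start on and not before it. The C/EBP core stood once before S100a8 and at 2 places before S100a9, and 40.7% of promoters held it. GAGGAA stood at 2 places before S100a8, the second just ahead of TATAAA in the short stretch, and at 0 before S100a9, with 28.3% of promoters holding it. The AP-1 motif TGANTCA (7.81% of promoters) and the STAT motif TTCNNNGAA (8.3%) matched neither window. No motif overlapped another. A match describes letters only.

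Values are log2(TPM + 1), where TPM is a transcript abundance scaled for gene length and library total. In normal epithelium S100a8 stood at 0.48, 1.33 and 1.76 in libraries 1 to 3. In hyperplasia epithelium it stood at 7.09, 11.03 and 7.10. The 4 dysplasia epithelium libraries had 10.38, 0.49, 12.19 and 9.0. All 3 hyperplasia libraries and 3 of the 4 dysplasia libraries were above every normal library, and dysplasia epithelium 2 was within the normal range. Tumor epithelium had 9.36, 6.53 and 9.83, with no overlap with normal epithelium. The group means were 1.19 ± 0.65 (SD, n = 3) in normal, 8.41 ± 2.27 (n = 3) in hyperplasia, 8.01 ± 5.18 (n = 4) in dysplasia and 8.57 ± 1.78 (n = 3) in tumor epithelium. The ranges of the 3 lesion stages overlapped, so their order is within the spread between libraries.

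S100a9 followed the same libraries. It stood at 0.23, 0 and 1.08 in normal epithelium and at 7.09, 11.05 and 6.76 in hyperplasia epithelium. In dysplasia epithelium it stood at 10.08, 0, 11.93 and 8.85, again with library 2 at the normal level. Tumor epithelium had 9.35, 6.24 and 9.61, so 9 of the 10 lesion libraries were above every normal one. The means were 0.43 ± 0.57, 8.30 ± 2.39, 7.72 ± 5.30 and 8.40 ± 1.87 in the order of the stages.

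**Figure D1:**
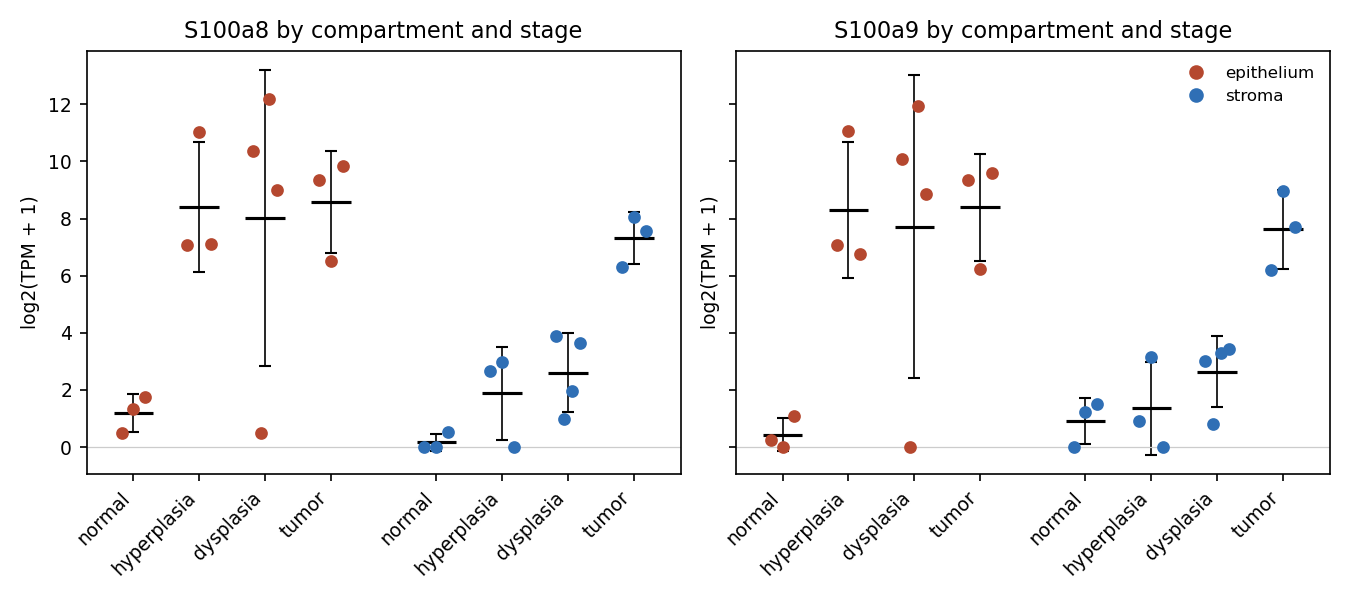
Level of S100a8 (left) and S100a9 (right) as log2(TPM + 1), by compartment and stage; each point is a library, the thick line is the group mean and the bar its SD. Lesion epithelium is high apart from dysplasia epithelium 2, at 0.49 and 0, and in stroma the 3 tumor libraries are high.

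On the linear scale S100a8 had at most 2.39 TPM in normal epithelium and 4670 TPM in dysplasia epithelium 3, where it ranked 9 of 16397 genes and S100a9 ranked 11. In hyperplasia epithelium 2 both genes together held 1.58% of the TPM in the table. The lowest of the 9 high libraries, tumor epithelium 2, still had 91.7 TPM of S100a8. The level in normal epithelium was close to the mean of 156 olfactory receptor genes in the same libraries, which was 0.91, 0.85 and 1.82 on the log2(TPM + 1) scale and stands here for background. The deposited values keep no sequencing depth, so these low values carry no counting interval.

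Fitted with sequencing run as a term, S100a8 differed from normal epithelium by 6.05 ± 1.5 (SE) in hyperplasia, 6.24 ± 1.37 in dysplasia and 6.22 ± 1.5 in tumor on the log2 scale. The differences of S100a9 were 6.69 ± 1.54, 6.69 ± 1.41 and 6.79 ± 1.54. In limma's fit over all genes, with Benjamini-Hochberg adjustment and a threshold of 0.05, both genes were called in dysplasia, where 0.467% of genes were. Neither was called in hyperplasia (0.0354% of genes called), in tumor (0.0496%) or in the F test among the 4 stages (0.163%). The genes were chosen on these differences, so these calls are no result about them. Dysplasia epithelium 2 was sampled at 16 weeks and had 17.2% of its TPM in Lars2, March6 and D17H6S53E. Without it the dysplasia difference was 8.65 for S100a8 and 9.17 for S100a9. Normal epithelium 3 was the highest of the normal libraries and the 1 normal library of run 1. Without it the S100a8 differences were 4.67 in hyperplasia, 4.99 in dysplasia and 4.84 in tumor, and those of S100a9 were 5.35, 5.47 and 5.45. The normal libraries left were all of run 2, so lesion libraries alone set the run term in that fit.

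Age and run could be followed library by library. At 16 weeks, S100a8 stood at 0.48 in normal epithelium 1 and at 0.49 in dysplasia epithelium 2. At 20 weeks it stood at 1.76 in normal epithelium 3 and at 7.09 in hyperplasia epithelium 1. At 24 weeks normal epithelium 2 had 1.33, against 11.03 in hyperplasia epithelium 2 and 10.38 in dysplasia epithelium 1. The lesion libraries were thus higher at 20 and at 24 weeks, and at 16 weeks the 2 libraries were alike. Normal and tumor tissue had no age in common, and age and tumor cannot be told apart for that comparison. Within run 1 the tumor mean of S100a8 was 7.83 above the 1 normal library, and within run 2 the 1 tumor library was 5.63 above the mean of the normal ones. For dysplasia the same differences were 9.52 in run 1 and 3.84 in run 2, which holds dysplasia epithelium 2.

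In stroma the 2 genes were high in tumor. S100a8 was listed at 0, 0 and 0.51 in normal stroma and at 2.65, 2.99 and 0 in hyperplasia stroma. Dysplasia stroma had 3.87, 0.97, 1.95 and 3.63, and tumor stroma had 6.32, 8.06 and 7.57. All 3 tumor libraries were above each of the other 10 stroma libraries. The group means were 0.17 ± 0.29, 1.88 ± 1.64, 2.60 ± 1.38 and 7.32 ± 0.90 in the order of the stages. Hyperplasia stroma overlapped with normal stroma, whereas the 4 dysplasia libraries were all above the normal ones.

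S100a9 was at 0, 1.21 and 1.51 in normal stroma and at 0.90, 3.15 and 0 in hyperplasia stroma. Dysplasia stroma had 3.02, 0.80, 3.29 and 3.43, so library 2 fell within the normal range. Tumor stroma had 6.21, 8.97 and 7.70, with no overlap with the other stages. The means were 0.91 ± 0.80, 1.35 ± 1.62, 2.64 ± 1.23 and 7.63 ± 1.39.

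The fitted tumor minus normal difference in stroma was 7.30 ± 0.98 (SE) for S100a8 and 6.63 ± 1.00 for S100a9. Both genes were called there, where 0.0806% of genes were, and among the 4 stages, where 0.195% were. Nothing is read from these calls either. Differences of dysplasia from normal were 2.51 ± 0.90 and 1.68 ± 0.91, and those of hyperplasia 1.86 ± 0.98 and 0.35 ± 1.00. Neither gene was called in dysplasia stroma (0.0403% of genes called) or hyperplasia stroma (0.00672%). The median over all genes was -0.72 in hyperplasia minus normal stroma and -0.01 after quantile normalization, so small differences in that comparison are relative to this shift. Hyperplasia stroma 1, with 86.0% of its TPM in the 3 dominant genes, and dysplasia stroma 2, with 53.4%, stood apart from the other libraries.

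Lesions of the same age differed in stroma. At 28 weeks S100a8 stood at 1.95 in dysplasia stroma 3 and at 7.57 in tumor stroma 3. At 32 weeks it stood at 0 in hyperplasia stroma 3 and at 3.87 in dysplasia stroma 1, against 6.32 and 8.06 in tumor stroma 1 and 2. The tumor libraries were the highest at both ages.

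Over the 8 groups, S100a8 and S100a9 had the same 4 groups at the top: tumor, hyperplasia and dysplasia epithelium, then tumor stroma. Neighbours among these 4 overlapped. Tumor stroma and the next group, dysplasia stroma, did not overlap for either gene. The 4 lower groups overlapped with their neighbours in the order.

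Averaged over stages, the fitted epithelium minus stroma difference was 3.55 ± 0.71 (SE) for S100a8 and 3.08 ± 0.71 for S100a9. Both were called, in a comparison in which 23.9% of genes were, and nothing is read from it. Libraries were also matched by code number, age and run, a match the labels do not state. In the 13 pairs S100a8 was higher in epithelium in 11 and S100a9 in 9. The S100a8 difference was 4.44 to 8.03 in the 3 hyperplasia pairs. In dysplasia it was 10.24, 6.75 and 5.13 in 3 pairs and -0.48 in the pair that holds dysplasia epithelium 2. In tumor it was 3.03 and 2.26 in 2 pairs and -1.53 in the third, where S100a9 differed by -2.73. The smaller differences in tumor pairs accompanied the high levels in tumor stroma, and whether the difference varies with stage was not tested.

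**Figure D2:**
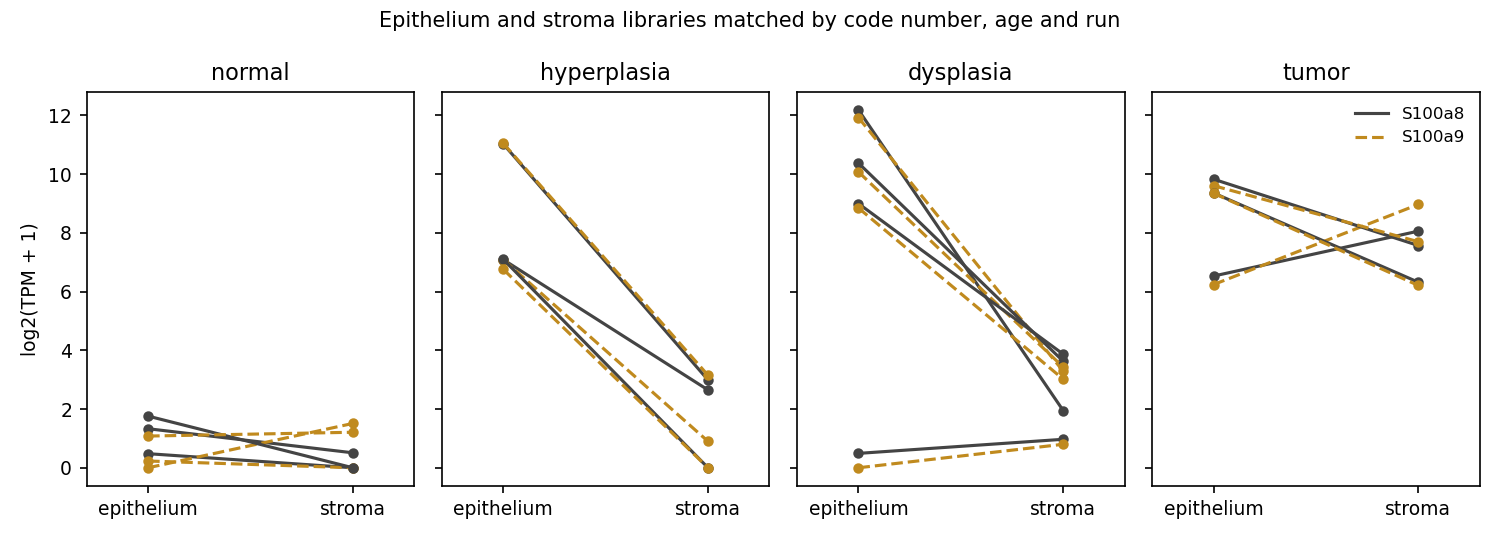
Level of S100a8 (solid) and S100a9 (dashed) as log2(TPM + 1) in epithelium and stroma, with a line for each of 13 pairs matched by code number, age and run. Lines fall from epithelium to stroma in hyperplasia and in 3 of 4 dysplasia pairs, and in tumor 1 of 3 pairs rises.

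The 2 subunits had nearly the same level in each high library. S100a8 minus S100a9 was between -0.03 and 0.34 on the log2 scale in the 9 high epithelium libraries. In tumor stroma it was 0.12, -0.91 and -0.13, so tumor stroma 2 held more S100a9. Libraries fell into clusters at the widest gap in S100a8, and relations were computed within the larger cluster. In the 9 epithelium libraries above the gap from 1.76 to 6.53, Pearson's r between the 2 genes was 0.997 and Spearman's rho 0.98, given as a description with no p. It was 0.997 without the 2 libraries farthest from the median, 0.997 after subtraction of group means, and 0.996 in the 6 libraries of run 1. Run 2 held 3 of these libraries, too few for a value.

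In the 10 stroma libraries below the gap from 3.87 to 6.32, r was 0.80 and rho 0.72. Without the 2 farthest libraries r was 0.80, and after subtraction of group means 0.75. Each run held 5 of them, too few for a value within a run.

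**Figure D3:**
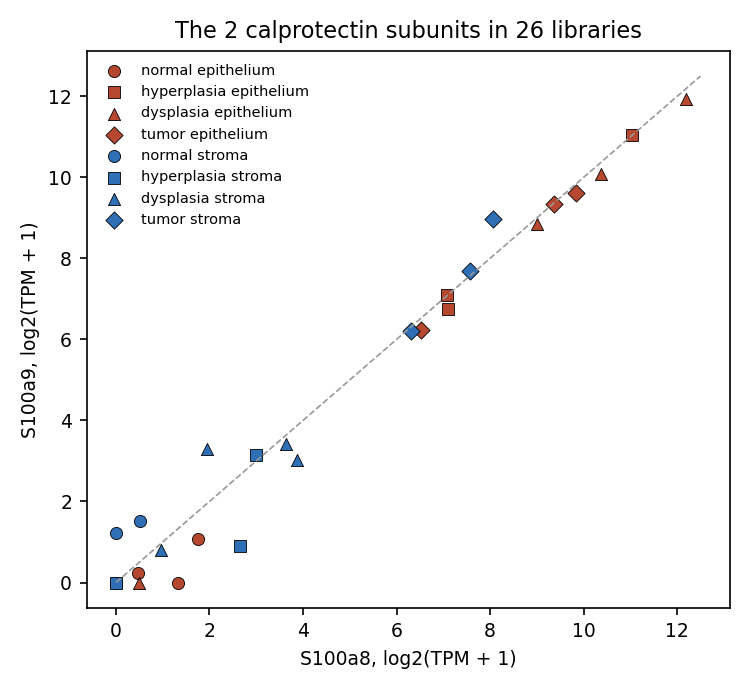
S100a9 against S100a8, both as log2(TPM + 1), in 26 libraries; colour gives the compartment, shape the stage, and the dashed line marks equal values. The high libraries lie along the line, and the low ones scatter around it.

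Krt16 was already abundant in normal epithelium, unlike the calprotectin genes. Its mean was 8.42 ± 0.79 (SD, n = 3) in normal, 10.85 ± 0.65 (n = 3) in hyperplasia, 10.49 ± 1.22 (n = 4) in dysplasia and 11.09 ± 0.44 (n = 3) in tumor epithelium. The differences from normal were 2.42 ± 0.79 (SE), 2.07 ± 0.73 and 2.66 ± 0.79, with limma adjusted p = 0.691, 0.294 and 0.354. The dysplasia difference passed under quantile normalization (adjusted p = 0.0463). Krt16 in dysplasia epithelium 2, where S100a8 was at 0.49, was 9.36, against 7.61 to 9.18 in normal epithelium. In stroma the Krt16 means were 5.02, 3.20, 4.30 and 8.43 in the order of the stages, and the tumor difference was 3.55 ± 1.04 (SE, limma adjusted p = 0.497). Krt16 and the calprotectin genes were thus both high in tumor stroma, and the part of keratinocyte RNA in that result was not tested. Tumor stroma 2 had the highest Krt16 of the stroma libraries, 10.66, and the highest S100a8, S100a9 and Csf3r. Tumor stroma 1 had more Krt16 than tumor stroma 3, 8.2 against 6.44. It had less S100a8, 6.32 against 7.57, and less Csf3r, 3.41 against 5.42.

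Of the 6 measured genes of stressed keratinocytes, Krt17 alone passed in dysplasia epithelium, where 0.467% of all genes did. Its difference was 3.97 ± 0.70 (SE, limma adjusted p = 0.0107), and it was higher in every dysplasia library than in every normal one. The Krt17 call was lost without normal epithelium 1 (adjusted p = 0.147), without normal epithelium 3 (0.0862) or without dysplasia epithelium 1 (0.0597). All 6 had positive differences, with a median of 1.98 against 0.02 over all genes. Their summed TPM was 363 to 999 in normal and 1410 to 8710 in dysplasia epithelium. In stroma, 4 of the 6 differed among the stages, where 0.195% of all genes did. They were Gjb2 and Il1f6, a gap junction protein and a cytokine of the interleukin-1 family, with Krt17 and Krt16 (limma F test, adjusted p = 0.00223, 0.014, 0.00256 and 0.00792). These 4 calls were lost with a pseudocount of 0.1, under quantile normalization and after rescaling without the 3 dominant genes. In the same order of genes, adjusted p was 0.119, 0.281, 0.119 and 0.146 without hyperplasia stroma 1. It was 0.051, 0.065, 0.136 and 0.189 without hyperplasia stroma 2, and 0.0669, 0.641, 0.12 and 0.342 without tumor stroma 2. Further single libraries ended the Il1f6 call, dysplasia stroma 3 (0.123) and tumor stroma 1 (0.118), and that of Krt16, tumor stroma 1 (0.0528). Their summed TPM in stroma was 439 to 3170 in tumor and 13 to 144 in the other stages.

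Csf3r in epithelium was highest in tumor. Its mean there was 1.07 ± 0.75 (SD, n = 3) in normal, 1.37 ± 0.51 (n = 3) in hyperplasia, 1.65 ± 0.39 (n = 4) in dysplasia and 2.94 ± 0.80 (n = 3) in tumor. The tumor difference was 1.83 ± 0.49 (SE, limma adjusted p = 0.241). The tumor epithelium values, 2.01, 3.45 and 3.35, were above every other epithelium library, of which the highest had 1.91. In dysplasia epithelium 3, the library with the most S100a8, Csf3r was 1.85, and in hyperplasia epithelium 2 it was 1.62, within the range of 0.46 to 1.91 in normal epithelium. In stroma its mean was 1.16 ± 0.29 (SD, n = 3) in normal and 4.90 ± 1.31 (n = 3) in tumor, a fitted difference of 3.70 ± 0.95 (SE) that missed the threshold (limma adjusted p = 0.142). It passed under quantile normalization (adjusted p = 0.0457), without dysplasia stroma 2 (0.041), and without both hyperplasia stroma 1 and dysplasia stroma 2 (0.0252). The 3 tumor stroma values of Csf3r, 3.41, 5.88 and 5.42, were above each of the other 10.

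The group means of Mpo were between 1.48 and 1.79 in epithelium and between 1.61 and 2.32 in stroma, and its highest value, 3.99, was in dysplasia stroma 2. The summed TPM of the 14 measured neutrophil markers was 14.2 to 57.5 in normal, 20.2 to 63.1 in hyperplasia, 29.4 to 44.7 in dysplasia and 44.6 to 66.8 in tumor epithelium. In stroma it was 16.6 to 36.4, 0.571 to 101, 23.8 to 73.3 and 64.3 to 133. Of 9 tested in epithelium and 10 in stroma, 0 passed limma's test in any of the 3 differences from normal, and 2 in each compartment had an unadjusted p under 0.05. In these differences at most 0.467% of all genes passed in epithelium and 0.0806% in stroma. A count of 0 among so few genes thus does not show that they were unchanged, here or for the lists below. The granule genes Elane, Prtn3 and Ctsg were each listed at 0 in 15 of 26 libraries. In bulk tissue, fewer cells of a type and less RNA per cell cannot be told apart.

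**Figure D4:**
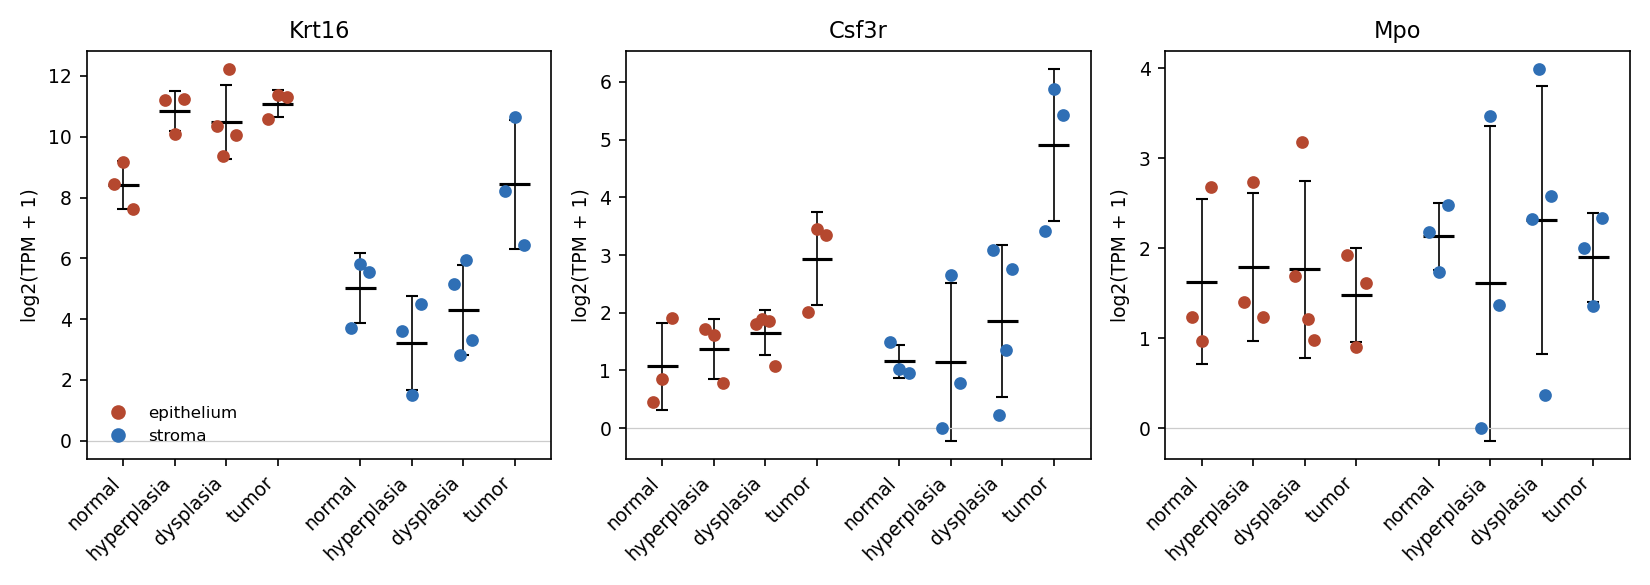
Level of Krt16, Csf3r and Mpo as log2(TPM + 1), by compartment and stage; points are libraries, thick lines group means and bars SD, and the vertical scales differ. Krt16 is high in all epithelium, Csf3r is highest in tumor stroma, and the group means of Mpo lie between 1.48 and 2.32.

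Within the 9 high epithelium libraries S100a8 had r = -0.04 with Krt16, -0.08 with Csf3r and 0.49 with Mpo, and rho was -0.08, -0.02 and 0.50 (exact permutation test, two-sided, p of r adjusted over 14 relations 0.946, 0.946 and 0.432). For S100a9 with Mpo there r was 0.52 and rho 0.52 (exact permutation test, adjusted p = 0.403). After subtraction of group means r with Mpo was 0.83 for S100a8 and 0.85 for S100a9 (permutation test, adjusted p = 0.0321). The permutation ignored the groups whose means were subtracted, so this p can be too small and nothing is read from it. Mpo was 0.91 to 2.74 in these 9 libraries, and the olfactory receptor mean, taken as background, was 0.61 to 1.9. Both were highest in hyperplasia epithelium 2. Within the 10 lower stroma libraries r of S100a8 was -0.31 with Krt16, 0.63 with Csf3r and 0.04 with Mpo, and rho was -0.34, 0.51 and 0.28 (permutation test, two-sided, adjusted p of r 0.76, 0.201 and 0.946). For Csf3r in stroma r was 0.23 without the 2 libraries farthest from its median, so it rests on those. S100a9 with Csf3r in stroma had r = 0.73 and rho = 0.60 (permutation p = 0.0221, adjusted 0.103), and r = 0.57 without the 2 farthest. S100a9 with Krt16 in stroma had r = -0.02 and rho = 0.07 (permutation test, adjusted p = 0.946). The 2 sets of libraries were cut at a gap in S100a8 itself, which narrows its range. A low r within them does not show that genes are unrelated, and nothing is read from these p-values. Over all 13 libraries, across that gap, r with the mean of S100a8 and S100a9 was 0.76 for Krt16, 0.33 for Csf3r and -0.17 for Mpo in epithelium. In stroma it was 0.68, 0.93 and -0.04.

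Of 10 tested macrophage markers 2 passed in dysplasia epithelium, where 0.467% of all genes did. They were C1qc, a complement subunit, with 2.37 ± 0.42 (SE, limma adjusted p = 0.00991), and Cd68, a lysosomal protein, with 2.08 ± 0.41 (adjusted p = 0.0217). All 10 had positive differences, with a median of 1.08. Leaving out normal epithelium 1 ended both calls (adjusted p = 0.117 and 0.249), as did leaving out dysplasia epithelium 1 (0.0597 and 0.0733). The C1qc call was also lost without normal epithelium 2 (0.068), and that of Cd68 without dysplasia epithelium 4 (0.0662). The summed TPM of the 11 measured markers was 7.66 to 22.8 in normal and 35.7 to 59.9 in dysplasia epithelium, and the part of such cells in the S100a8 level was not tested. The other stages of epithelium had 0 calls, with 10 of 10 positive in tumor (median 1.44) and 9 of 10 in hyperplasia (0.851). In stroma 0 passed, where at most 0.0806% of all genes did. There 11 of 11 were positive in dysplasia (median 1.225) and tumor (0.943), and 4 of 11 in hyperplasia (-0.522). Averaged over stages, 8 of 11 macrophage markers were lower in epithelium than in stroma, a comparison in which 23.9% of all genes passed, with C1qa at -2.36 ± 0.37 and Mrc1, the mannose receptor, at -2.10 ± 0.37 (limma adjusted p = 1.07e-05 and 5.75e-05).

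Among cytokines that can induce calprotectin and their receptors, Il1b, interleukin-1 beta, passed in tumor stroma, with 4.52 ± 1.01 (SE, limma adjusted p = 0.0322). It was 1 of 8 tested, where 0.0806% of all genes passed. All 8 had positive differences, with a median of 0.86 against -0.05 over all genes. The Il1b call was lost in 14 of 22 alternatives, among them without tumor stroma 2 (adjusted p = 0.905). In epithelium 0 of 8 passed limma's test in any difference from normal (2 at an unadjusted p under 0.05). Il17a, a T cell cytokine, was not among those 8, being below the filter there, with a mean of 0.35 to 0.51. Between compartments, Il22ra1, a receptor subunit for interleukin-22, Il1a, interleukin-1 alpha, and Il17rc, a receptor subunit for interleukin-17, were higher in epithelium by 2.22 ± 0.27, 2.19 ± 0.32 and 2.14 ± 0.38 (limma adjusted p = 1.07e-07, 2.88e-06 and 6.99e-05).

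The genes for proteins that receive or transmit the calprotectin signal did not pass limma's test in any difference from normal, 0 of 10 in either compartment (2 in each at an unadjusted p under 0.05). Of all genes, at most 0.467% passed in epithelium and 0.0806% in stroma. Tlr4, Toll-like receptor 4, had means between 2.43 and 3.46 over the 8 groups. Between compartments Myd88, the adaptor of Toll-like receptors, and Bsg, basigin, were higher in epithelium by 1.43 ± 0.43 and 1.24 ± 0.44 (SE, limma adjusted p = 0.0139 and 0.0348). The Bsg call was lost in 16 of 34 alternatives, with an adjusted p of up to 0.116 and a difference down to 0.74. Mcam, a cell adhesion molecule, was lower in epithelium, at -1.07 ± 0.33 (limma adjusted p = 0.0167), a call lost with a pseudocount of 0.1 (adjusted p = 0.17).

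Of 12 transcription factors linked to these genes, 0 passed limma's test against normal, of 11 tested in epithelium and 12 in stroma (5 and 0 at an unadjusted p under 0.05). The shares of all genes that passed were at most 0.467% and 0.0806%. The median difference in dysplasia epithelium was 0.89, with 10 of 11 positive. Cebpb, a C/EBP family member, differed there by 0.13 ± 0.54 (SE, limma adjusted p = 0.976). Its relatives Cebpa and Cebpd differed by 0.235 ± 0.47 and 1.21 ± 0.42 (limma adjusted p = 0.954 and 0.294). Between compartments 7 of 12 were higher in epithelium (23.9% of all genes passed), among them Cebpb at 1.57 ± 0.32, Junb at 1.70 ± 0.38 and Fosl1 at 1.39 ± 0.34, the last 2 being subunits of AP-1 (limma adjusted p = 0.000388, 0.00102 and 0.0025).

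Other antimicrobial genes of the mucosa did not pass limma's test in epithelium, 0 of 5 against normal (1 at an unadjusted p under 0.05), where at most 0.467% of all genes did. In stroma 0 of 5 passed against normal by limma (4 at an unadjusted p under 0.05), where at most 0.0806% of all genes did. Differences there were positive for 5 of 5 in tumor (median 1.361), 1 in dysplasia (-1.388) and 0 in hyperplasia (-0.988). In stroma, Defb14, a beta-defensin, differed among the stages (limma F test, adjusted p = 0.000785), with means of 2.48, 0, 0.38 and 4.59, and lost the call under the same 3 alternatives and without hyperplasia stroma 1 (adjusted p = 0.0958). Defb14, Defb1 and Slpi, a secreted protease inhibitor, were higher in epithelium than in stroma by 5.0 ± 0.44, 3.50 ± 0.37 and 5.16 ± 0.64 (SE, limma adjusted p = 9.68e-10, 1.07e-08 and 1.89e-07). For neutrophil attractants and growth factors, 4 of 8 were in the rows used, and 0 of 3 tested passed limma's test against normal in either compartment (2 in epithelium and 1 in stroma at an unadjusted p under 0.05).

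Of the other S100 genes, 10 were tested in epithelium and 11 in stroma. By limma 0 of 10 and 0 of 11 passed against normal (3 and 6 at an unadjusted p under 0.05), where at most 0.467% and 0.0806% of all genes did. Their median difference was 0.03 in dysplasia epithelium and -0.67 in tumor stroma. Between compartments S100a14, S100a16 and S100a11 were higher in epithelium (3.00 ± 0.46, 2.53 ± 0.43 and 1.98 ± 0.52, limma adjusted p = 6.74e-06, 3.52e-05 and 0.00472). S100a4 was higher in stroma (-1.63 ± 0.51, limma adjusted p = 0.0182), a call lost with a pseudocount of 0.1 (adjusted p = 0.175). S100a5 had a mean of 3.25 ± 0.92 (SD, n = 3) in normal stroma and 0.27 ± 0.47 (n = 3) in tumor stroma, a fitted difference of -3.20 ± 0.87 (SE) that did not pass (limma adjusted p = 0.243).

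Genes within 500 kb of the pair were read as a group. Of 29 other coding genes, 24 had a row of their own. Against normal, 0 of 22 tested in epithelium and 0 of 23 in stroma passed limma's test (4 and 7 at an unadjusted p under 0.05), where at most 0.467% and 0.0806% of all genes did. The median difference of these neighbours was 0.15 in dysplasia epithelium and -0.25 in tumor stroma, against 0.02 and -0.05 over all genes. Pglyrp4, a peptidoglycan recognition protein and the next measured gene beyond S100a9, differed by 1.25 ± 0.56 (SE, limma adjusted p = 0.501) in dysplasia epithelium. Between compartments 4 of 23 were higher and 5 lower in epithelium, where 23.9% of all genes passed, among them Pglyrp4 at 2.96 ± 0.36 and Npr1, a natriuretic peptide receptor, at -1.99 ± 0.36 (limma adjusted p = 1.17e-07 and 6.76e-05).

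**Figure D5:**
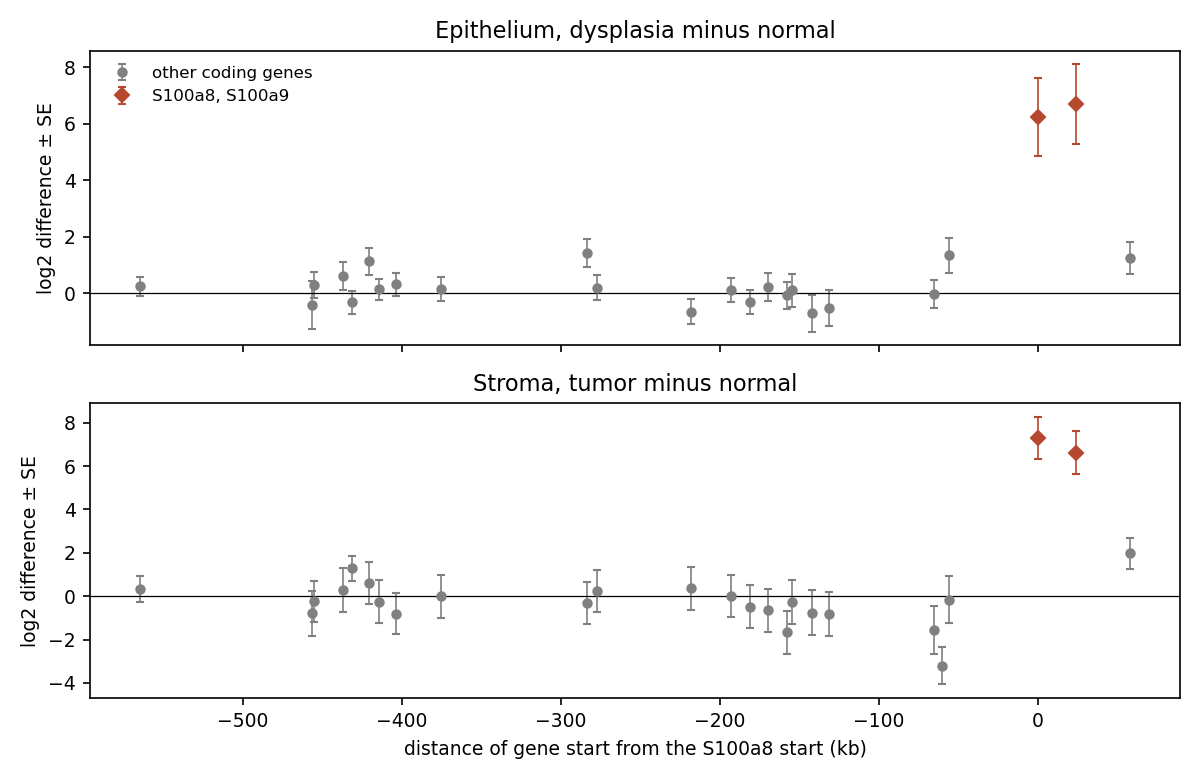
Fitted log2 difference ± SE against the distance of a gene's start from the S100a8 start in kb, for dysplasia minus normal epithelium (top) and tumor minus normal stroma (bottom). The 2 calprotectin genes stand at 6.24 and 6.69 and at 7.30 and 6.63. Of the other measured coding genes whose bodies reach within 500 kb 0 passed the test, which 0.467% and 0.0806% of all genes passed.

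The genes most like the mean of S100a8 and S100a9 over the 13 libraries of a compartment were named by Pearson's r, as a description over libraries that share stages and runs. In epithelium, of 14124 genes, they were Klk6, a kallikrein protease (r = 0.91), Nmb, neuromedin B (0.90), Steap4, a metalloreductase (0.90), Pglyrp4 (0.89), Cyp7b1, an oxysterol hydroxylase (0.88), and Cd53, a tetraspanin of leukocytes (0.88). Klk6 had means of 0.79, 3.33, 3.79 and 2.29 in the order of the stages. Krt16 had r = 0.76 and Csf3r 0.33 there. In stroma, of 14881 genes, they were Il1b (0.93), Csf3r (0.93), Rtn4rl2, a Nogo receptor family member (0.91), Spp1, osteopontin (0.90), Mcemp1, a membrane protein of mast cells and myeloid cells (0.90), and Lama1, a laminin chain (0.90). Spp1 had means of 1.37, 0.76, 1.78 and 5.79. Krt16 had r = 0.68 in stroma. Both sets of libraries fall into high and low clusters, which these values span.

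The dissection was read from marker genes. All 7 measured keratinocyte identity genes were higher in epithelium, among them Dsp, a desmosome protein, at 3.28 ± 0.43 (SE), and all 8 of connective tissue, vessel and muscle were lower, among them Col3a1, a collagen, at -3.66 ± 0.38 (limma adjusted p = 3.85e-07 and 1.11e-08). Of 10 tested markers of lymphocytes, mast cells and eosinophils, 2 were lower in epithelium, Cpa3 and Kit of mast cells (-1.82 ± 0.36 and -1.26 ± 0.35, limma adjusted p = 0.00027 and 0.00777), against 23.9% of all genes that passed, and 0 of 8 passed against normal in either compartment (1 in epithelium and 0 in stroma at an unadjusted p under 0.05).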

How the data were processed

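RNA of 26 libraries was measured by RNA-seq. The deposited table holds the authors' log2(TPM + 1) values, a scale inferred from their range and library totals. The submitters' processing notes name Salmon 0.9.1, HTSeq 0.10.0 and STAR 2.5.1b, beside Trimmomatic 0.36 and SAMtools 1.6, and build GRCm38.p6, and give no role or order. TPM keeps no depth, so no counting interval was computed, and differences understate changes of low genes.

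Of 18676 rows for 17023 gene identifiers, the 16397 whose identifier stands in a single row were used. Paralogs in shared rows, such as Krt6a, were left out. A gene entered a fit if 3 or more of its libraries reached 1 TPM, and tests used limma 3.58.1 in R 4.3.3. Each compartment was fitted with stage and sequencing run, with moderation following the mean level. Residual degrees of freedom were 8, and prior ones 13.5 in epithelium and 71.8 in stroma, so SEs borrow much of their spread from other genes. Epithelium and stroma were compared in 1 fit of 26 libraries with 8 groups and run. P-values were adjusted by Benjamini-Hochberg with a threshold of 0.05. The fits were checked on simulated data.

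Relations used exact permutations for 9 libraries and 100000 resamples for 10 (scipy 1.17.1, numpy 2.4.6). Alternatives changed the pseudocount to 0.1, dropped the filter, normalized by quantiles, rescaled without the 3 dominant genes, changed terms or rows, or left out libraries.

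The members and all lists were chosen with earlier results of these data known. Named genes were the members and Krt16, Csf3r and Mpo, up to 4 genes per list past the threshold with the smallest adjusted p or else the first 2 measured, and the 6 genes most like the members. Of the genes in the text, Elane, Prtn3, Ctsg, Pglyrp4 in epithelium, Cebpb between stages and S100a5 between stages were singled out after their values were seen. Code numbers, age and run matched 13 pairs, whose deviations from group means correlated between -0.12 and 0.60, over 0.1 in 7 of 13, so they were not used as pairs in the main fit. The human samples and immunostaining of the study were not analysed here.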

Additional observations from a re-analysis of the deposited data

Results flagged for a closer look

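In 2 groups of 4 libraries a lowest library stood apart from the other 3. S100a9 in dysplasia stroma was 0.80 in library 2, a gap of 0.844 of the group's range. That share is past the 95% critical value of Dixon's test, which marks the library for a closer look and tests nothing about the gene. The library had 53.4% of its TPM in 3 genes and the highest Mpo, 3.99. Csf3r in dysplasia epithelium was 1.07 in library 4, a gap of 0.885 of the range, while S100a8 was 9.0 in that library. Chance marks about 1 in 20 groups in this way. The low calprotectin values of dysplasia epithelium 2 were not marked in this way.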

How the results depend on the processing

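With age as a covariate the tumor minus normal difference in epithelium was 3.89 for S100a8 and 4.62 for S100a9. With a pseudocount of 0.1 the stroma differences were 4.91 for S100a8 in dysplasia, and 10.14 for S100a8 and 8.06 for S100a9 in tumor. S100a9 in hyperplasia stroma ranged from -0.45 to 1.03 over single libraries left out, falling below 0 without normal stroma 1 (-0.03) or hyperplasia stroma 2 (-0.45). The cause of these changes was not tested.

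The relation of S100a8 with S100a9 in stroma had r = 0.81 with a pseudocount of 0.1, 0.83 after rescaling without the 3 dominant genes and 0.75 after subtraction of group means, against 0.80 in the main analysis. Signs changed among relations that missed the threshold. In epithelium, S100a8 and S100a9 with Krt16 had r of 0.24 and 0.24 after rescaling, 0.19 and 0.17 without the 2 farthest libraries, and 0.15 and 0.10 within run 1. With Csf3r they had 0.10 and 0.10 after rescaling, 0.53 and 0.56 without the 2 farthest, 0.13 and 0.11 after subtraction of group means, and 0.35 and 0.35 within run 1. In stroma, S100a8 with Mpo had -0.067 with a pseudocount of 0.1, and S100a9 with Krt16 had 0.10 without the 2 farthest and 0.009 after subtraction of group means. With Mpo in epithelium, group means subtracted, r was 0.83 for S100a8 and 0.85 for S100a9. Nothing is read from its permutation p, which ignored the groups.

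Counts of genes past the threshold moved widely. Over all alternatives they were 0 to 55 for hyperplasia (5 in the main analysis), 5 to 395 for dysplasia (66), 0 to 80 for tumor (7) and 0 to 221 for the F test (23) in epithelium. In stroma they were 0 to 108 (1), 0 to 41 (6), 1 to 17 (12) and 0 to 113 (29). Between compartments they were 2755 to 5119 (3706). With the replicate number of the titles as a block, 17 genes passed for dysplasia epithelium, and same-numbered libraries correlated between -0.73 and 0.58, so the numbers do not pair them. With the 13 matched pairs as a block, 4577 genes differed between compartments. The stroma F test calls of Defb14, Gjb2, Krt17, Krt16, Il1f6 and Il1b were lost with a pseudocount of 0.1, quantile normalization and rescaling.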
